A study of Mus musculus with 24 samples.

Results

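The genes described here are 9 members of the transforming growth factor beta (TGF-beta) pathway, measured in the hippocampal CA1 subfield of mice after pilocarpine-induced status epilepticus (SE). They were chosen by name: the ligands Tgfb1, Tgfb2 and Tgfb3, the extracellular proteins Ltbp2 and Thbs1, the receptors Tgfbr1 and Tgfbr2, and the intracellular proteins Smad3 and Smad7. All 9 were found among the 18647 genes of the count table by matching gene identifiers to symbols, and all 9 were among the 18153 genes that passed the filter on low counts. Each of 8 groups held 3 libraries, 24 libraries in all, taken 6, 12, 24, 36 or 72 h after SE and, from controls without SE (Ctr), at 12, 36 or 72 h.

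All animals were C57Bl/6N mice of at least 60 days, and all were given scopolamine methyl nitrate (1 mg/kg), a blocker of peripheral muscarinic receptors, and later diazepam (4 mg/kg), which dampens seizures. SE animals received pilocarpine hydrochloride (335 mg/kg), a muscarinic agonist that triggers seizures, whereas controls received saline in its place. Pilocarpine-injected animals that did not develop SE were left out by the study, so the SE groups hold no animals that resisted the drug. The tissue was microdissected CA1, which holds neurons, glia and vessels together, and from such bulk RNA a change in the number of cells of a type and a change in RNA per cell cannot be told apart. The labels list separate samples but do not tie each to an animal, so p-values measure the spread between these samples.

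TGF-beta ligands are secreted in a latent form, held by a propeptide and by latent TGF-beta binding proteins in the matrix. Thrombospondin-1, integrins and proteases can release the active ligand, which binds the type II receptor, and this recruits and phosphorylates the type I receptor. The receptor complex phosphorylates Smad2 and Smad3, which enter the nucleus with Smad4, and inhibitory Smads such as Smad7, itself a target gene of the pathway, block the receptor. In the brain the pathway is known for its part in astrocyte and microglial responses to injury and to serum proteins that cross a leaky blood-brain barrier.

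Library totals ranged from 2663936 to 30133731 counts (median 13521590), and the smallest totals were in Ctr 72 h, where they ranged from 2663936 to 11680209. Levels are given as CPM, the counts scaled to a common library total after TMM normalisation, within a gene, and as CPM per kilobase of merged exons (RPKM) where genes are compared. A gene was called between SE and control where the adjusted p was at most 0.05 and the log2 fold change at least 0.66 in size. Adjusted p-values come from the quasi-likelihood test of edgeR, with the Benjamini-Hochberg method applied across all genes tested. Intervals are nominal 95% intervals of 1.96 standard errors (s.e.) to each side, with the s.e. taken from the test statistic. They use the normal distribution and are narrower than the test implies. An interval can thus lie clear of no change where the unadjusted p is above 0.05. In 6 libraries, marker genes of sensory ganglia, a tissue outside the brain, summed to over 100 CPM against 11.3 to 88.1 CPM in the other 18, and Ctr 72 h replicate 2 was the highest of them at 2050 CPM. The other libraries over that limit were SE 6 h replicate 3, SE 12 h replicate 1, SE 36 h replicate 3 and SE 72 h replicates 1 and 2. Calls that are lost or gained without these 6 libraries are given beside the results, except at 72 h. There SE 72 h replicate 3 alone remained in its group, and at most effect sizes are given. That fit is still among the alternative fits counted below. CA1 pyramidal cell markers were present in every group, with summed levels of 722 to 1440 CPM in controls and 302 to 885 CPM after SE. Dentate granule cell markers were at 3.24 to 88.7 CPM in controls and at 16 to 229 CPM after SE. Of 5 CA1 markers 0 were called at 12 h, 3 were lower at 36 h and 2 lower at 72 h. Of 3 dentate markers 0 were called at 12 and 36 h and 3 were higher at 72 h. SE 72 h replicate 1 held both the lowest CA1 sum (302 CPM) and the highest dentate sum (229 CPM), with 1120 CPM of ganglion markers.

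In control CA1, Smad3 was the most abundant of the members per length, at 13.8 ± 1.95 RPKM (SD, n = 9), followed by Tgfb2 at 9.97 ± 3.59 RPKM. Tgfbr1 (5.39 ± 0.897 RPKM) and Smad7 (4.98 ± 0.925 RPKM) came next, then Tgfbr2 (2.14 ± 0.623 RPKM), Tgfb3 (2.07 ± 0.719 RPKM), Tgfb1 (0.996 ± 0.243 RPKM), Thbs1 (0.63 ± 0.414 RPKM) and Ltbp2 (0.0552 ± 0.0512 RPKM). The ranges over the 9 control libraries did not overlap between Smad7 and Tgfbr2, between Tgfb3 and Tgfb1 or between Thbs1 and Ltbp2, and they overlapped between every other pair of neighbours in that order. No member was called between any pair of control groups, where 0%, 1.97% and 0.931% of all genes tested were called between 12 and 36 h, 36 and 72 h, and 12 and 72 h. DESeq2 and limma-voom also called 0 members there, and at an unadjusted p under 0.05 edgeR passed 0 of the members' 27 values. At that unadjusted threshold 648, 3879 and 3500 of the 18153 genes tested passed between 12 and 36 h, 36 and 72 h, and 12 and 72 h.

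At 12 h after SE, 4 of the 9 members were called higher and 0 lower, where 25.2% of all genes tested were called in either direction and 13.9% higher. At 36 h 3 members were called higher and 0 lower, against 21.6% of all genes in either direction and 12.7% higher, and at 72 h 4 were called higher and 0 lower, against 19.4% and 15.2%. The median log2 fold change of the 9 members was 0.76, 0.59 and 0.78 at these 3 times, against 0.0071, 0.0033 and 0.097 over all genes. At 6 and 24 h no time-matched controls exist, and SE was compared with the mean of the 3 control groups, which are the same 9 libraries for both times and include those used at 12, 36 and 72 h. There, 5 members were called higher at 6 h (22% of all genes in either direction, 15.8% higher) and 4 at 24 h (24.1% and 14.9%), with 0 lower at either time, and at these times the time after treatment and SE itself cannot be told apart. In none of these 5 comparisons was a member lower at an unadjusted p under 0.05 in edgeR, or called lower by DESeq2 or limma-voom. Without the 6 libraries rich in sensory ganglion markers, 4, 3 and 3 members were called at 12, 36 and 72 h, and 5 at both 6 and 24 h, all of them higher. The share of all genes called was then 27.8%, 21.2% and 12.3% at 12, 36 and 72 h, so that at 72 h it was lower than with all libraries by over 1.5 times, and it was 19.6% at 6 h and 24.4% at 24 h.

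**Figure D1:**
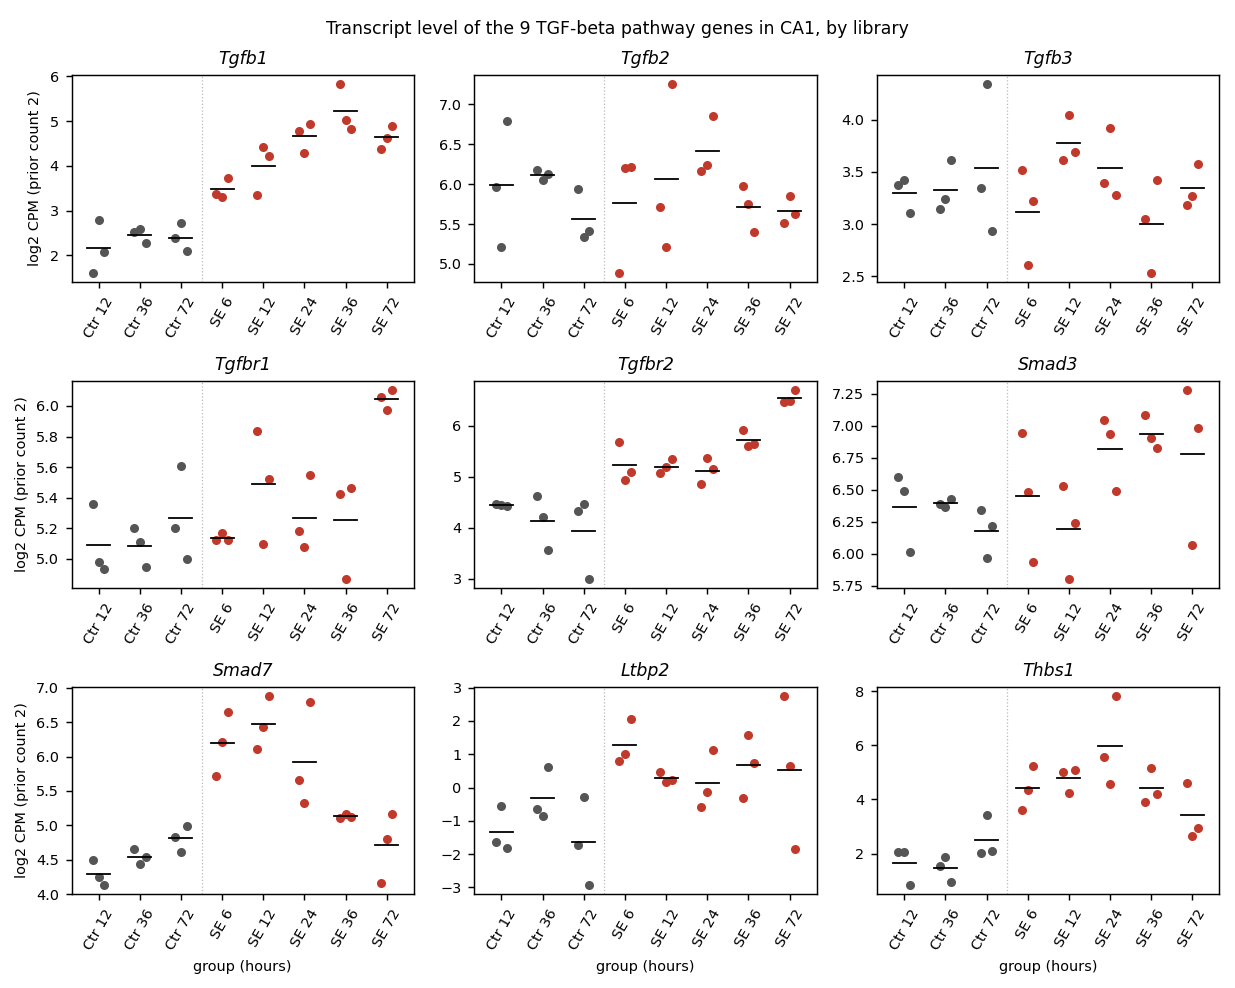
Level of each of the 9 genes in every library, as log2 CPM with a prior count of 2 on the vertical axis and the groups (3 libraries each, hours after SE or saline) on the horizontal axis. Grey points are controls, red points SE libraries and the black lines group means. Tgfb1 and Tgfbr2 lay above all 9 control libraries in all 15 SE libraries, Smad7 and Thbs1 in 13 of 15, and Tgfb3 in 0 of 15.

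Of the 3 ligands, Tgfb1 was called higher after SE in each of the 5 comparisons with controls, and neither Tgfb2 nor Tgfb3 was called in any of them. Bases upstream of the annotated start of Tgfb1 and of Tgfb2 are shown because these 2 genes encode related ligands, of which the first was called at every time and the second at none. The sequences are from RefSeq (mouse GRCm38.p6), matched without mismatch to a single place in GRCm39, and end at the base before the gene's first annotated base. Capitals mark GC boxes in Tgfb1 (GGGCGG, found here on the other strand as CCGCCC) and Smad boxes in Tgfb2 (CAGAC, on the gene's strand).
Tgfb1 (chr7:25386177-25386389, GRCm39, plus strand): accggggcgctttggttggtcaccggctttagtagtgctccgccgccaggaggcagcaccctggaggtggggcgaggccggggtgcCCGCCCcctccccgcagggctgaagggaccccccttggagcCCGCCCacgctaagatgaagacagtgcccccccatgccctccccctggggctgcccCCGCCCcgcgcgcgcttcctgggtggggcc
Tgfb2 (chr1:186438295-186438436, GRCm39, minus strand): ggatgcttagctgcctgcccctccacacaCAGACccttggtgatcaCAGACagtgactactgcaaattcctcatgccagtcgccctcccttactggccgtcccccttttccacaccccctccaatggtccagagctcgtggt

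The Tgfb1 window of 213 bases was 74.6% G and C and held 3 GC boxes, with their first bases at positions -127, -86 and -30 from the gene start. The Tgfb2 window of 142 bases was 58.5% G and C and held 2 Smad boxes, at positions -113 and -96, and no GC box. Searched on both strands over the 250 bases before the start, longer than the printed windows, the GC box was present in 32.7% of 32851 mouse promoters and the Smad box in 42.2%. The AP-1 element TGANTCA (6.75% of promoters), the cAMP response element TGACGTCA (1.55%) and the Smad palindrome GTCTAGAC (0.167%) were in none of the 7 windows found for 6 members, and the Egr site GCGGGGGCG (2.57%), which contains no GC box, was in that of Tgfbr1. Promoters of Tgfb3, Smad7 and Thbs1 were not analysed here.

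Tgfb1 (chr7:25386390-25404506, plus strand) encodes the ligand best known from immune cells, wound healing and fibrosis. In controls its level was between 2.93 and 6.77 CPM, with a median of 5.06 CPM over the 9 libraries. It was 10.2, 9.80 and 13.2 CPM at SE 6 h, 10.0, 21.4 and 18.4 CPM at SE 12 h, and 27.4, 19.3 and 30.7 CPM at SE 24 h. It was 56.8, 32.2 and 28.3 CPM at SE 36 h and 20.8, 24.7 and 29.5 CPM at SE 72 h. Every SE library was above every control library, and the mean was highest at SE 36 h (39.1 CPM).

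Tgfb1 was 3.58-fold higher at 12 h (log2 fold change 1.84, s.e. 0.32, edgeR adjusted p = 0.000183), 7.23-fold higher at 36 h (2.85, s.e. 0.33, adjusted p = 1.69e-06) and 4.67-fold higher at 72 h (2.22, s.e. 0.35, adjusted p = 8e-05). Against all controls it was 2.18-fold higher at 6 h (edgeR adjusted p = 0.00151) and 5.03-fold higher at 24 h (adjusted p = 1.77e-07). The SE effect at 36 h exceeded that at 12 h by 1.01 on the log2 scale, which did not pass the test of the difference (95% interval 0.14 to 1.89, edgeR adjusted p = 0.207). The 5 calls of Tgfb1 against controls were kept under each of the 38 alternatives tried, with a log2 fold change of no less than 1.61 at 12 or 72 h and 2.48 at 36 h. No other gene's exons overlapped its exons.

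Tgfb2 (chr1:186354985-186438294, minus strand), the ligand with a known part in neural and cardiac development, was the most abundant ligand per length in the 9 control libraries. It measured 62.6, 36.8 and 111 CPM at Ctr 12 h and 52.2, 37.0 and 153 CPM at SE 12 h, and these libraries overlapped. At 36 h it was 72.4, 66.0 and 69.7 CPM in controls and 63.1, 53.8 and 42.3 CPM after SE, where all 3 SE libraries were below the controls but the difference did not pass the test (log2 fold change -0.39, 95% interval -1.23 to 0.45, edgeR adjusted p = 0.526). The intervals at 12 h (-0.66 to 1.01, adjusted p = 0.778) and 72 h (-0.80 to 0.93, adjusted p = 0.933) were as wide. Its spread among libraries of a group was wide, from 29.6 to 73.9 CPM at SE 6 h.

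Tgfb3 (chr12:86102756-86126301, minus strand), the third ligand, was between 7.5 and 20.1 CPM in controls and between 5.67 and 16.3 CPM after SE. At 12 h it was 10.2, 10.6 and 8.51 CPM in controls and 12.1, 16.3 and 12.7 CPM after SE. The SE libraries were all above the controls, but the difference was not called (log2 fold change 0.51, s.e. 0.25, edgeR adjusted p = 0.119). Without the 6 libraries rich in sensory ganglion markers the value was 0.57 with an adjusted p of 0.0452, below the fold threshold. Without them its SE effect at 36 h was also lower than that at 12 h by the test of the difference (-1.11, edgeR adjusted p = 0.043, against -0.81, adjusted p = 0.207, with all libraries). Its exons overlap those of the protein-coding gene Ttll5 on the opposite strand over 179 bases, and counting did not use the strand, so its level is uncertain.

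The make-up of the ligand transcripts was taken within each library. Per length, Tgfb1 made up 4 to 14.4% of the 3 ligand transcripts in the control libraries, and Tgfb2 made up 55.7 to 87.9%. The share of Tgfb1 was 15.6, 31.7 and 11.9% at SE 12 h, 49, 39.6 and 38.7% at SE 36 h, and 31.3, 30.6 and 36.4% at SE 72 h. At 36 and 72 h all SE libraries were above all control libraries in this share, while at 12 h a control library (14.4%) lay above an SE library (11.9%). The difference of the means at 12 h, 12.1 percentage points, was 6.08 points without SE 12 h replicate 2. The mean share was 7.67% in Ctr 12 h and 19.7% in SE 12 h, 7.55% in Ctr 36 h and 42.4% in SE 36 h, and 9.29% in Ctr 72 h and 32.8% in SE 72 h. The summed level of the 3 ligands was 14.1 ± 0.493 RPKM at Ctr 36 h and 17.7 ± 4.5 RPKM at SE 36 h (SD, n = 3). These shares are a description with no test, and a change of share does not show which ligand changed.

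**Figure D2:**
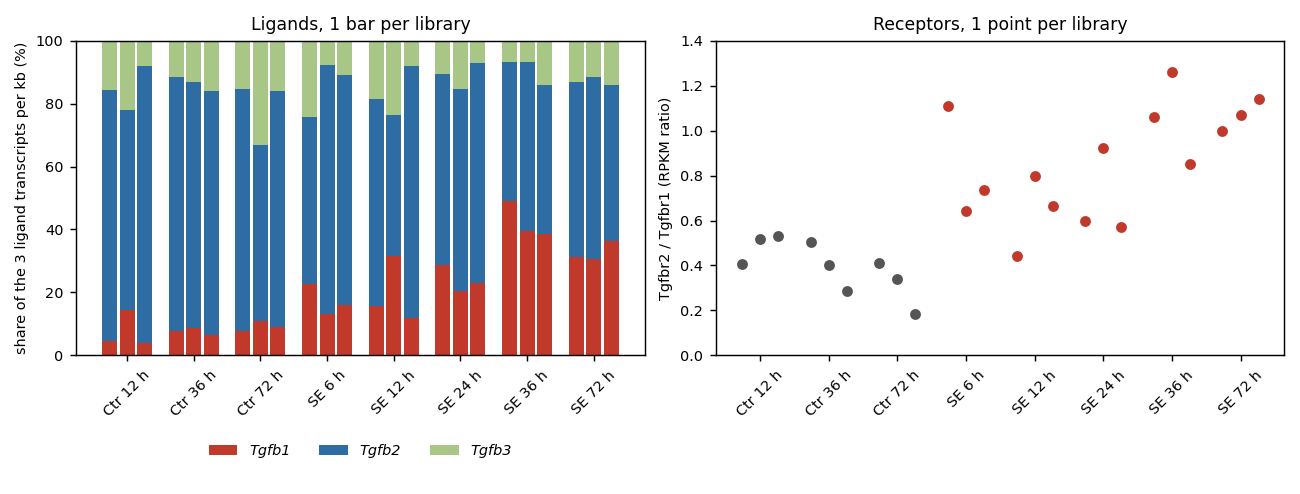
Left, share (%) of Tgfb1, Tgfb2 and Tgfb3 in the summed RPKM of the 3 ligands, 1 bar per library, 3 bars per group. Right, ratio of Tgfbr2 to Tgfbr1 in RPKM, 1 point per library, with controls in grey and SE in red. The Tgfb1 share was 38.7 to 49% at SE 36 h against 4 to 14.4% in controls, and the receptor ratio was 1 to 1.14 at SE 72 h against 0.186 to 0.529 in controls.

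Of the extracellular proteins, Thbs1 (chr2:117941974-117957616, plus strand) encodes thrombospondin-1, an activator of latent TGF-beta that astrocytes, platelets and vascular cells release. It was 3.98, 4.08 and 1.66 CPM at Ctr 12 h and 32.5, 18.6 and 34.2 CPM at SE 12 h. At 36 h it was 2.81, 3.55 and 1.81 CPM in controls and 14.8, 36.2 and 18.1 CPM after SE. At both times every SE library was above every control library, and Thbs1 was 9-fold higher at 12 h (log2 fold change 3.17, s.e. 0.72, edgeR adjusted p = 0.00179) and 8.4-fold higher at 36 h (3.07, s.e. 0.73, adjusted p = 0.00277). The 36 h call was lost with limma-voom (2.91, adjusted p = 0.0635).

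At 24 h Thbs1 was 46.8, 23.9 and 226 CPM, and its mean was the highest of the SE groups (98.9 CPM), but replicate 3 was far above the other two. Against all controls its log2 fold change was 4.76 at 24 h (s.e. 0.50, edgeR adjusted p = 2.39e-07) and 2.7 at 6 h (s.e. 0.51, adjusted p = 0.000336), and over the 38 alternatives the 24 h value was between 3.28 and 5.23. At 72 h it was 3.88, 10.7 and 4.12 CPM in controls and 24.4, 6.20 and 7.65 CPM after SE. These groups overlapped and Thbs1 was not called (log2 fold change 1.21, 95% interval -0.25 to 2.67, edgeR adjusted p = 0.243). The SE effect at 72 h was 1.96 lower than at 12 h on the log2 scale, which did not pass the test of the difference (adjusted p = 0.178). Its exons overlap the non-coding genes Gm13986 (511 bases) and Gm29233 (208 bases) on the opposite strand.

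Ltbp2 (chr12:84829986-84923306, minus strand) encodes a fibrillin-binding matrix protein of the latent TGF-beta binding protein family. It was hardly detected in controls, with 2, 8 and 4 counts at Ctr 12 h, 7, 8 and 17 counts at Ctr 36 h and 2, 4 and 0 counts at Ctr 72 h. At SE 6 h it had 20, 19 and 96 counts (1.6, 1.86 and 4.08 CPM), above all 9 controls (0 to 1.4 CPM), and it was called against all controls (log2 fold change 2.83, s.e. 0.68, edgeR adjusted p = 0.0027). At SE 72 h it had 111, 15 and 3 counts (6.57, 1.43 and 0.146 CPM), so the groups overlapped. Its call at that time (log2 fold change 3.63, s.e. 1.15, edgeR adjusted p = 0.0233) was lost without SE 72 h replicate 1 (1.62, adjusted p = 0.319), Ctr 72 h replicate 1 (4.34, adjusted p = 0.0753) or Ctr 72 h replicate 3 (3.13, adjusted p = 0.0658). It was also lost with limma-voom (2.32, adjusted p = 0.248) and with a replicate block and no RUVr factor (3.19, edgeR adjusted p = 0.0609). Without the 6 libraries rich in sensory ganglion markers, which left SE 72 h replicate 3 alone in its group, the value was 0.12. Counts this low do not support a size, and at 12 h (edgeR adjusted p = 0.122), 24 h (0.0811) and 36 h (0.312) it was not called. The 24 h value of 1.66 was called without SE 72 h replicate 1 (1.58, adjusted p = 0.0483), without SE 72 h replicate 3 (1.58, adjusted p = 0.0414) and without the 6 libraries (1.71, adjusted p = 0.0363). Its exons share 764 bases with the non-coding gene D030025P21Rik on the opposite strand.

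Of the receptors, Tgfbr2 (chr9:115913361-116004800, minus strand) encodes the type II receptor, which binds the ligand first. It was 22.1, 21.6 and 21.3 CPM at Ctr 12 h and 33.7, 36.2 and 40.4 CPM at SE 12 h. It was 24.5, 18.4 and 11.7 CPM at Ctr 36 h and 60.1, 48.8 and 49.7 CPM at SE 36 h. At 72 h it was 20.1, 22 and 7.87 CPM in controls and 88.6, 89.6 and 104 CPM after SE, and at all 3 times the SE libraries were above the controls.

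Tgfbr2 was 1.7-fold higher at 12 h (log2 fold change 0.76, s.e. 0.25, edgeR adjusted p = 0.022), 2.9-fold higher at 36 h (1.54, s.e. 0.26, adjusted p = 0.000127) and 5.47-fold higher at 72 h (2.45, s.e. 0.27, adjusted p = 1.31e-06). The SE effect at 72 h exceeded that at 12 h by 1.69 on the log2 scale (s.e. 0.37, adjusted p = 0.00315), in a comparison in which 22.2% of all genes passed the same test. Against all controls Tgfbr2 was 2.03-fold higher at 6 h (51.1, 30.5 and 33.8 CPM, edgeR adjusted p = 0.000449) and 1.85-fold higher at 24 h (28.8, 41.0 and 35.2 CPM, adjusted p = 0.00141). The 12 h call was close to the threshold and was lost when Ctr 12 h replicate 1 (adjusted p = 0.0523), Ctr 12 h replicate 3 (0.0604) or SE 12 h replicate 3 (0.0688) was left out, while the calls at 6, 24, 36 and 72 h were kept under each of the 38 alternatives.

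Tgfbr1 (chr4:47353134-47414931, plus strand) encodes the type I receptor, the kinase that phosphorylates Smad2 and Smad3. At 72 h it was 36.6, 48.6 and 31.9 CPM in controls and 66.6, 62.8 and 68.6 CPM after SE, with no overlap, and was 1.72-fold higher (log2 fold change 0.78, s.e. 0.18, edgeR adjusted p = 0.00236). At 12 h the libraries overlapped, with 40.8, 31.4 and 30.4 CPM in controls and 57.1, 34.1 and 45.9 CPM after SE, and it was not called (0.41, adjusted p = 0.0631). At 6 and 24 h its log2 fold changes were -0.016 (95% interval -0.29 to 0.26) and 0.13 (-0.15 to 0.40), and at 36 h 0.18 (-0.15 to 0.52). The SE effect at 72 h did not pass the test of a difference from that at 12 h (0.37, edgeR adjusted p = 0.294) or 36 h (0.60, adjusted p = 0.154).

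The ratio of Tgfbr2 to Tgfbr1 within a library, per length, was 0.186 to 0.529 in the 9 control libraries. It was 0.444, 0.8 and 0.663 at SE 12 h, 1.06, 1.26 and 0.852 at SE 36 h, and 1, 1.07 and 1.14 at SE 72 h. All SE libraries except SE 12 h replicate 1 were above all controls in this ratio, which is a description with no test. Exons of Tgfbr1 and Tgfbr2 overlap those of non-coding genes on the opposite strand, over 61 bases (Gm32435) and 443 bases (Gm4668). Counting did not use the strand, so reads there could not be assigned to a gene by strand.

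Of the intracellular members, Smad7 encodes the inhibitory Smad that blocks the type I receptor and is itself induced by TGF-beta. It was 22.5, 18.9 and 17.4 CPM at Ctr 12 h and 68.8, 86.0 and 118 CPM at SE 12 h. It was 25.1, 21.6 and 23.1 CPM at Ctr 36 h and 34.2, 35.8 and 34.6 CPM at SE 36 h. At 72 h it was 28.4, 24.2 and 31.5 CPM in controls and 17.7, 27.9 and 35.8 CPM after SE, so the groups were apart at 12 and 36 h and overlapped at 72 h.

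Smad7 was 4.62-fold higher at 12 h (log2 fold change 2.21, s.e. 0.32, edgeR adjusted p = 2.37e-05), and was not called at 36 h (0.59, 95% interval -0.016 to 1.19, adjusted p = 0.158) or 72 h (-0.051, -0.67 to 0.57, adjusted p = 0.93). Against all controls it was 3.25-fold higher at 6 h (52.4, 74.1 and 101 CPM, edgeR adjusted p = 1.14e-05) and 2.88-fold higher at 24 h (50.2, 40.0 and 111 CPM, adjusted p = 2.97e-05), and at 24 h replicate 3, the library that was also high in Thbs1, stood above the other two. The SE effect at 72 h was 2.26 lower than at 12 h on the log2 scale (s.e. 0.44, edgeR adjusted p = 0.0016), a call that was kept under each of the 38 alternatives. The SE effect at 36 h was 1.62 lower than at 12 h (s.e. 0.43, adjusted p = 0.0412), in a comparison in which 3.83% of all genes passed, and this call was lost in 16 of 38 alternatives. It was lost without any library of the 4 groups compared other than SE 12 h replicate 1, and likewise when replicate 2 of SE 6 h or of SE 72 h was left out, with differences of -1.73 to -1.40 and adjusted p-values of 0.0509 to 0.101. Between 36 and 72 h no member's SE effect passed the test of the difference in edgeR, DESeq2 or limma-voom, and 5.35% of all genes passed in edgeR. At an unadjusted p under 0.05 edgeR passed 2 of the 9 members and 4042 of the 18153 genes tested. Without Ctr 72 h replicate 1, the difference in Tgfbr2 passed (1.23, edgeR adjusted p = 0.0454).

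Smad3 (chr9:63554049-63665476, minus strand) encodes the Smad that carries the signal into the nucleus, and it was not called in any comparison. At 12 h it was 96.8, 90.0 and 64.5 CPM in controls and 92.4, 55.9 and 75.3 CPM after SE, and at 72 h it was 81.1, 62.4 and 74.2 CPM in controls and 155, 67.1 and 126 CPM after SE. Both pairs of groups overlapped. At 36 h all 3 SE libraries (135, 120 and 113 CPM) were above the controls (83.7, 82.4 and 85.8 CPM), and the log2 fold change was 0.55 (s.e. 0.26, edgeR adjusted p = 0.122). Its value at 72 h, 0.68 (95% interval 0.16 to 1.21, adjusted p = 0.0627), was called in 7 of 38 alternatives, among them DESeq2 (0.67, adjusted p = 0.0471) and the fits without SE 72 h replicate 2 (0.96, adjusted p = 0.00798), SE 6 h replicate 1 (0.68, adjusted p = 0.0465) or SE 6 h replicate 3 (0.68, adjusted p = 0.0464). At 24 h its value of 0.52 (adjusted p = 0.0517) was called without SE 24 h replicate 3 (0.67, adjusted p = 0.0388). Without SE 72 h replicate 2 its SE effect also passed the test of a difference between 72 and 12 h (1.12, edgeR adjusted p = 0.0251, against 0.85, adjusted p = 0.11, with all libraries). Without the 6 libraries rich in sensory ganglion markers, the difference between 36 and 12 h passed (0.94, edgeR adjusted p = 0.0436), where 7.95% of all genes did. That between 72 and 12 h was then 1.03, with SE 72 h replicate 3 alone in its group.

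**Figure D3:**
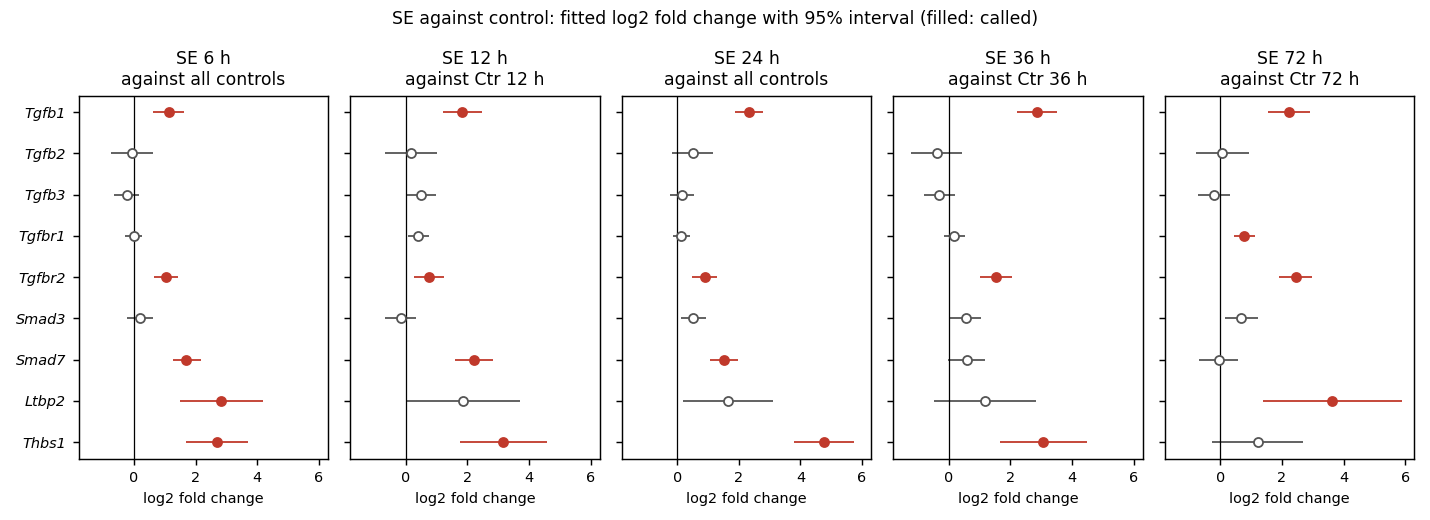
Fitted log2 fold change (points) with nominal 95% interval (lines, 1.96 s.e. to each side) of each of the 9 genes, in a panel for each comparison of SE with control, filled red where called. Tgfb1 and Tgfbr2 were called at all 5 times, Thbs1 at 6, 12, 24 and 36 h, Smad7 at 6, 12 and 24 h, Ltbp2 at 6 and 72 h, and Tgfbr1 at 72 h; Tgfb2, Tgfb3 and Smad3 were called at none.

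The libraries of SE and control did not overlap for 6 members at 12 h, 6 at 36 h and 3 at 72 h, where the same held for 47.7%, 51.9% and 32.8% of all genes tested. They did not overlap for 5 members at 6 h and 4 at 24 h, against 22.2% and 23.6% of all genes. Between consecutive SE times, where a call needed a log2 fold change of 1, 0 members were called from 6 to 12 h, 12 to 24 h, 24 to 36 h and 36 to 72 h, and 1.34%, 3.18%, 0.529% and 4.13% of all genes were. DESeq2 and limma-voom also called 0 there, and at an unadjusted p under 0.05 edgeR passed 11 of the members' 36 values. At that unadjusted threshold 3730, 4474, 3015 and 4545 of the 18153 genes tested passed at these 4 steps. For Thbs1 and Smad7 the values between SE times turned on the libraries of SE 24 h. Thbs1 had a log2 fold change of 1.80 from 12 to 24 h (edgeR adjusted p = 0.0797), which was 0.32 without SE 24 h replicate 3 (adjusted p = 0.769), 2.26 without replicate 2 (adjusted p = 0.0273) and 1.31 without the 6 libraries rich in sensory ganglion markers (adjusted p = 0.0415). Its value from 24 to 36 h was -2.07 (edgeR adjusted p = 0.122), and it was -0.59 without replicate 3 (adjusted p = 0.72), -2.53 without replicate 2 (adjusted p = 0.0451) and -1.47 with these groups fitted alone (adjusted p = 0.044). Smad7 had -0.42 from 12 to 24 h (edgeR adjusted p = 0.397), with -1 without replicate 3 (adjusted p = 0.0297) and -0.16 without replicate 2 (adjusted p = 0.795). From 24 to 36 h it had -0.95 (edgeR adjusted p = 0.133), with -0.37 without replicate 3 (adjusted p = 0.622) and -1.22 without replicate 2 (adjusted p = 0.0488). From 36 to 72 h Tgfbr1 and Tgfbr2 had adjusted p-values under the threshold with smaller folds (log2 fold changes 0.78, edgeR adjusted p = 0.0068, and 0.83, adjusted p = 0.0382).

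Among all genes whose mean log2 CPM was 1 or more, those whose levels followed a member most closely over the 24 libraries were found by Pearson's r, given as a description because all libraries share the SE and control groups. For Tgfb1 these were Elk3 (0.952), P4hb (0.949) and Emilin1 (0.945), and for Tgfbr2 they were Mcm4 (0.935), Slc12a7 (0.933) and P2rx7 (0.926). For Smad7 they were Rheb (0.972), Gpr3 (0.969) and Plpbp (0.956), and for Thbs1 Klf6 (0.931), Pim1 (0.929) and Emp1 (0.929). For Tgfbr1 the nearest was Rsu1 (0.845), for Tgfb2 Shisa6 (0.779), for Ltbp2 Angpt2 (0.797), for Smad3 Thada (0.747) and for Tgfb3 Optn (0.696). Among the members, r was 0.78 between Tgfb1 and Tgfbr2, 0.754 between Smad7 and Thbs1 and 0.705 between Tgfb1 and Thbs1, and 0.0316 between Tgfb1 and Tgfb2.

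Other genes of the pathway were counted in 5 lists, whose shares called stand against the shares of all genes given above (25.2% at 12 h, 21.6% at 36 h and 19.4% at 72 h). Of 21 tested genes for latency and activation of the ligands, 12 were higher and 0 lower at 12 h, 12 higher and 1 lower at 36 h, and 14 higher and 1 lower at 72 h, with medians of 0.77, 1.02 and 1.35 on the log2 scale. At 12 h these included Lrrc32, which tethers latent TGF-beta at the cell surface (5.86-fold, 24.6 ± 8.39 against 4.16 ± 2.08 CPM, SD, n = 3, edgeR adjusted p = 2.58e-05), the protease gene Plau (4.47-fold, adjusted p = 0.000602), the integrin gene Itgb3 (4.14-fold, adjusted p = 0.00022) and Furin, whose product cleaves the ligand precursors (4.07-fold, adjusted p = 1.92e-07). At 72 h they included Bgn, a matrix proteoglycan gene (6.49-fold, adjusted p = 6.8e-07), the integrin genes Itgav (4.55-fold, 222 ± 20.4 against 50.4 ± 14.4 CPM, edgeR adjusted p = 2.45e-09) and Itgb5 (4.23-fold, adjusted p = 1.01e-08), and Ltbp1 (3.43-fold, adjusted p = 1.13e-05). Ltbp4, named here after its values were seen because it is the single gene of the list that was lower at 36 and 72 h, fell by 1.23 at 36 h and by 0.70 at 72 h on the log2 scale (edgeR adjusted p = 7.22e-05 and 0.0108). The fit without the 6 libraries rich in sensory ganglion markers left SE 72 h replicate 3 alone in its group, so its calls of this list at 72 h are not given.

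Of 12 further receptor and co-receptor genes, 4 were higher and 0 lower at 12 h, 4 higher and 1 lower at 36 h, and 2 higher and 0 lower at 72 h, with medians of 0.082, 0.19 and -0.095. Acvrl1 and Eng, receptor and co-receptor genes known from endothelium, were 2.51-fold and 2.29-fold higher at 12 h (edgeR adjusted p = 0.00033 and 0.000538). Acvr1c, a type I receptor gene, was 4.53-fold higher at 36 h (65.7 ± 11.8 against 14.6 ± 3.86 CPM, SD, n = 3, adjusted p = 2.48e-05), and Tgfbr3l was lower (log2 fold change -1.09, adjusted p = 0.00769). At 72 h the 2 genes were Acvr1 (1.8-fold) and Bmpr1a (1.7-fold).

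Of 19 Smads, partners and inhibitors, 6, 3 and 3 were higher at 12, 36 and 72 h and 0 lower, with medians of 0.44, 0.24 and 0.22. Pmepa1, an inhibitor of Smad signalling, was 11-fold higher at 12 h (384 ± 93.9 against 34.8 ± 3.99 CPM, SD, n = 3, edgeR adjusted p = 4.41e-10), 5.3-fold at 36 h (adjusted p = 6.45e-09) and 2.28-fold at 72 h (adjusted p = 4.49e-05). Tgif1, a corepressor gene, was 5.03-fold higher at 12 h, 8.75-fold at 36 h and 8.92-fold at 72 h (edgeR adjusted p = 6.04e-07, 1.44e-08 and 1.44e-07). The inhibitory Smad6 was 5.1-fold higher at 12 h (adjusted p = 9.17e-05), and Skil, which holds Smads inactive, 2.44-fold (adjusted p = 2.4e-07).

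Of 23 genes known to be induced by TGF-beta, many of which other signals induce as well, 15 were higher and 1 lower at 12 h, 15 higher and 0 lower at 36 h, and 11 higher and 0 lower at 72 h, with medians of 1.64, 1.88 and 1.00. The list shares Col1a1, Col1a2, Col3a1, Acta2 and Tagln with the marker lists of meningeal fibroblasts and mural cells, and of the 4 of these that were tested 1, 3 and 1 were among those higher at 12, 36 and 72 h. At 36 h, 4 of 8 meningeal fibroblast markers and 4 of 8 mural cell markers were higher. These counts include the 3 shared genes that were higher at 36 h, and the part of these cell types in this list was not tested. Dcn, in the latency list, is also a meningeal fibroblast marker and was not called at these times. Timp1, a metalloproteinase inhibitor gene, was 73.8-fold higher at 12 h and 631-fold at 36 h (157 ± 15.7 against 0.244 ± 0.298 CPM, SD, n = 3, edgeR adjusted p = 9.88e-11), a fold that rests on 8 or fewer counts in each control library. Tgfbi, a matrix protein gene, was 24.9-fold higher at 36 h (edgeR adjusted p = 4.69e-10) and 14.6-fold at 72 h (adjusted p = 9.24e-09), and Cdkn1a, a cell cycle inhibitor gene, 20.5-fold higher at 12 h (adjusted p = 1.01e-06).

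Of 25 activin, BMP and GDF ligands and antagonists, 8 were higher and 3 lower at 12 h, 9 higher and 4 lower at 36 h, and 3 higher and 1 lower at 72 h, with medians of 0.67, 0.35 and 0.29. Inhba, whose product forms activin A, was 75-fold higher at 12 h (609 ± 110 against 8.23 ± 2.33 CPM, SD, n = 3, edgeR adjusted p = 2.57e-06) and 40.8-fold at 36 h (adjusted p = 7.84e-06). Gdf10 was lower at 12 h (log2 fold change -1.65, edgeR adjusted p = 0.0336) and 36 h (-2.33, adjusted p = 0.00924). At 72 h Chrdl1, a BMP antagonist gene, was 6.87-fold higher (edgeR adjusted p = 3.54e-06) and Bmp1, a protease gene, 5.22-fold (adjusted p = 5.4e-09).

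Against all controls, 22% of all genes were called at 6 h and 24.1% at 24 h. Of the 23 genes known to be induced by TGF-beta, 15 were higher at 6 h and 16 at 24 h, with 0 lower (65.2% and 69.6% called). Of the 21 genes for latency and activation, 7 were higher at 6 h and 12 at 24 h, with 0 and 3 lower (33.3% and 71.4%). Of the receptors 3 and 4 were higher and 0 and 3 lower at 6 and 24 h (25% and 58.3%). Of the Smads, partners and inhibitors 5 were higher at each time and 0 lower (26.3% at each). These shares of the Smad list, and that of the receptors at 6 h, were near those of all genes. Of the activin, BMP and GDF genes 6 and 9 were higher and 2 and 1 lower (32% and 40%). Without the 6 libraries rich in sensory ganglion markers, 15 and 15 of the induced genes and 11 and 13 of the latency and activation genes were higher at 12 and 36 h. Of the receptors 2 were then lower at 12 h, where 0 were with all libraries. In that fit 27.8% and 21.2% of all genes were called at 12 and 36 h. Pmepa1, Skil and Tgif1 are in both the list of Smads, partners and inhibitors and that of induced genes, and count in each.

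**Figure D4:**
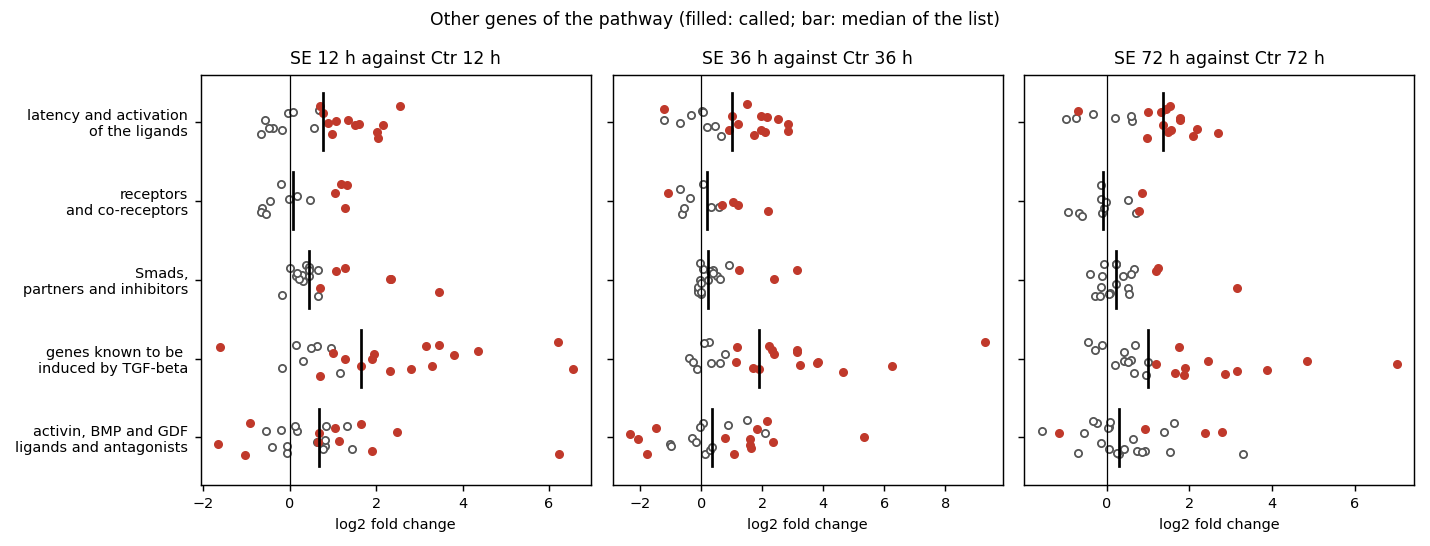
Fitted log2 fold change (horizontal axis) of each tested gene of 5 lists, SE against control at 12, 36 and 72 h, 1 point per gene, filled red where called and open where not, with a bar at the list's median. Of the 23 genes known to be induced by TGF-beta, 15, 15 and 11 were called higher, and of the 12 further receptor genes 4, 4 and 2.

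Markers of several cell types differed between SE and control in the same libraries. The 12 microglial markers summed to 414 to 507 CPM in controls, 307 to 344 CPM at SE 6 h and 334 to 469 CPM at SE 12 h. They summed to 604 to 810 CPM at SE 24 h, 808 to 922 CPM at SE 36 h and 1710 to 2480 CPM at SE 72 h. Of the 12, 1 was called higher and 3 lower at 12 h, 7 higher and 2 lower at 36 h, and 11 higher and 0 lower at 72 h. Against all controls 6 were higher and 2 lower at 24 h. At 6 h, where 22% of all genes were called, 0 of 12 microglial markers were higher and 6 lower, 5 of 9 endothelial markers were higher and 2 lower, 2 of 4 tested leukocyte markers were higher and 0 lower, and 3 of 8 oligodendrocyte markers were higher and 0 lower. The 10 astrocyte markers summed to 5050 to 6210 CPM in controls, 6450 to 9370 CPM at SE 12 h and 13200 to 14800 CPM at SE 72 h, of which Gfap alone had a mean of 3140 CPM at SE 12 h and 8150 CPM at SE 72 h, against 254 CPM at Ctr 12 h and Ctr 72 h. Without Gfap, the other 9 summed to 4800 to 5910 CPM in controls, 4160 to 5710 CPM at SE 12 h, 2850 to 3610 CPM at SE 36 h and 5730 to 6140 CPM at SE 72 h. Of the 10, 3 were called higher and 2 lower at 12 h, 5 higher and 4 lower at 36 h, and 5 higher and 0 lower at 72 h, and against all controls 2 were higher and 1 lower at 6 h and 3 higher and 4 lower at 24 h. The 9 endothelial markers summed to 265 to 374 CPM in controls and 384 to 576 CPM after SE, with 5 higher and 1 lower at 12 h, and the 3 of 5 platelet markers found summed to 0.853 to 12 CPM in controls and 7.39 to 21.5 CPM after SE, with Gp1ba at 0 in 2 libraries. The 8 of 9 mural cell markers found summed to 252 to 366 CPM at Ctr 36 h against 355 to 444 CPM at SE 36 h, and to 335 to 357 CPM at Ctr 72 h against 449 to 507 CPM at SE 72 h, with 4 higher and 0 lower at each of these times. The 8 meningeal fibroblast markers summed to 82.5 to 429 CPM over all controls, 117 to 162 CPM at Ctr 36 h and 199 to 291 CPM at SE 36 h, with 4 higher and 0 lower at 36 h and a median log2 fold change of 2.06. The 10 neuronal markers summed to 11300 to 18200 CPM in controls and 8360 to 13100 CPM after SE, with 3 lower at 72 h. Of 8 leukocyte markers 5 were found, at a summed 0.189 to 17.1 CPM in controls and 0.709 to 24.9 CPM after SE, with Ccr2, S100a8 and S100a9 at 0 in 6 libraries each. None of the microglial, astrocyte, endothelial or neuronal markers was at 0 in any library, and the part of these cell types in the levels of the 9 genes was not tested.

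**Figure D5:**
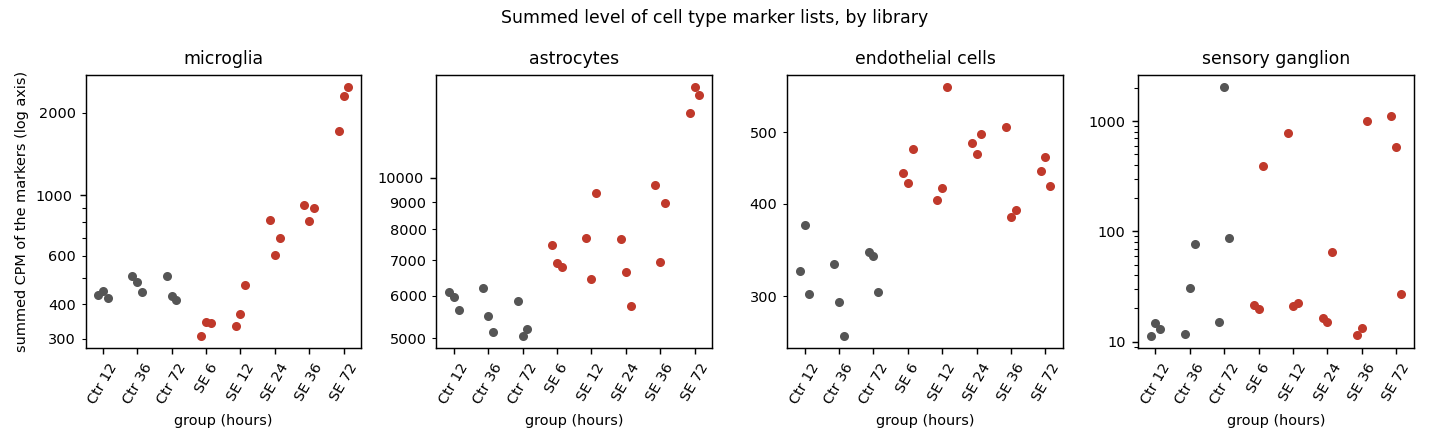
Summed CPM of marker lists (log axis) by library for microglia, astrocytes, endothelial cells and sensory ganglion, with 3 libraries per group, controls in grey and SE in red. Microglial markers were at 1710 to 2480 CPM at SE 72 h and at 307 to 344 CPM at SE 6 h against 414 to 507 CPM in controls, and sensory ganglion markers exceeded 100 CPM in 6 libraries.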

How the data were processed

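RNA was taken from microdissected CA1, selected for poly(A), made into unstranded TruSeq libraries and sequenced as paired ends. The counts deposited by the authors are whole read counts per gene and library, made, by the labels and the methods of the study, with Trim Galore 0.6.6, STAR 2.7.8a, SAMtools 1.10 and HTSeq 0.13.5 on GRCm39 with GENCODE annotation. Counting did not use the strand, and replicates were not pooled. The table may already have passed a filter of the authors on low counts. Gene symbols, positions and exon lengths came from GENCODE annotation of GRCm39, and 18552 of 18647 gene identifiers matched while 95 did not.

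Genes were kept with edgeR's filterByExpr over the 8 groups and scaled by TMM. The main test was edgeR's quasi-likelihood test (R 4.3.3, edgeR 4.0.16) over all 24 libraries, its model holding the groups and 1 RUVr factor (unwanted variation estimated from residuals, as in the study, and computed here) and Benjamini-Hochberg adjustment over 18153 genes. The factor was 0.797 in Ctr 72 h replicate 2, -0.383 and -0.374 in Ctr 72 h replicates 1 and 3, and between -0.102 and 0.136 elsewhere. At 72 h 2765 genes were called higher with it and 2073 without it. The median log2 fold change of all genes at 72 h was 0.0967 with it and 0.00888 without it. Calls were made at adjusted p-values up to 0.05 where the log2 fold change, in size, reached 0.66 against or between controls, or 1 between SE times, while differences of SE effects needed the adjusted p alone. SE 6 h and SE 24 h were tested against the mean of the 3 control groups. Alternatives were DESeq2 1.42.0, limma-voom (limma 3.58.1), other scalings, filters, thresholds and covariates, a replicate block and each library left out. Those concerning sensory ganglion markers were added after the data were seen. Counts were also simulated with 200 genes changed by 1.5 on the log2 scale in SE 12 h alone, and 17735 genes were tested after the filter. Against Ctr 12 h, 133 of the 200 (66.5%) were called in the right direction, and 9 unchanged genes were called in error. The simulation held no unwanted factor and changed few genes, whereas 25.2% of all genes were called at 12 h in the data. Its rates therefore need not hold for these data. Depth limits the low genes, above all Ltbp2, and intervals and spreads of so few counts cover counting error together with the spread between libraries.

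The members and lists were chosen with earlier results of these data known. All members are given in every comparison. For each pathway list and each time with matched controls, the named genes come from up to 4 called genes with the largest fold, 1 or more in mean log2 CPM, and no overlap between the 3 SE and the 3 control libraries. The most alike genes are those with the highest Pearson's r. Log2 CPM used a prior count of 2. Some genes that this rule names are not reported here.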

Additional observations from a re-analysis of the deposited data

Results flagged for a closer look

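The size of the SE effect on 2 genes differed between times by the test of the difference itself, by edgeR with Benjamini-Hochberg adjusted p-values. For Smad7 the effect at 36 h minus that at 12 h was -1.62 on the log2 scale (adjusted p = 0.0412, from 0.000222 to 0.101 over the alternatives), and the effect at 72 h minus that at 12 h was -2.26 (adjusted p = 0.0016, from 1.38e-06 to 0.0109). For Tgfbr2 the effect at 72 h minus that at 12 h was 1.69 (adjusted p = 0.00315, from 0.000127 to 0.0359). Of all genes, 3.83% passed the same test between 36 and 12 h, and 22.2% between 72 and 12 h. The 2 of 9 members that passed between 72 and 12 h were thus near the share of all genes. The Smad7 difference between 36 and 12 h was lost in 16 of 38 alternatives. The differences from 12 h share the 12 h libraries, so they are not independent of each other. With 3 libraries per group no library was tested for standing apart from the rest of its group.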

How the results depend on the processing

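Of 108 pairs of a gene and a comparison, 23 were called, and 19 of these kept the call under every alternative fit at the same thresholds. No called value changed sign, and 108 of the 4091 alternative values had the other sign, all of them values never called. The calls lost in these fits were Tgfbr2 at 12 h (also with the range of label numbers as a factor, adjusted p = 0.0542 in edgeR), Thbs1 at 36 h, Ltbp2 at 72 h and Smad7 between 36 and 12 h, as given above. Among the fits, that without the libraries rich in sensory ganglion markers left SE 72 h replicate 3 alone in its group. Other thresholds were applied only to the number of members called. A log2 threshold of 1 would leave out Tgfbr1 at 72 h (0.78) and Tgfbr2 at 12 h (0.76) and 24 h (0.89). The number of members called was 1 for SE 24 h against SE 12 h without the libraries rich in sensory ganglion markers, 1 for SE 36 h against SE 24 h with those groups alone in the fit, and 2 for SE 72 h against SE 36 h with a log2 threshold of 0.66 or none. For the SE effect at 36 h minus that at 12 h it was 0 without the RUVr factor, 0 with limma-voom, 0 with the range of label numbers and 3 without the libraries rich in sensory ganglion markers, and between control groups it was 1 with those groups alone in the fit. The cause was not tested.

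With each library left out in turn, the number called against controls was 3 to 4 (12 h), 3 (36 h), 3 to 5 (72 h), 5 (6 h) and 4 to 5 (24 h). It was 0 for SE 12 h against SE 6 h, 0 to 1 for SE 24 h against SE 12 h, 0 to 2 for SE 36 h against SE 24 h, 0 for SE 72 h against SE 36 h and 0 between control groups. For differences of the SE effect it was 0 to 1 between 36 and 12 h, 2 to 3 between 72 and 12 h and 0 to 1 between 72 and 36 h. The SE minus control difference in the Tgfb1 share lay between 6.08 and 16 points at 12 h, between 31.6 and 36.8 at 36 h and between 21.7 and 24.6 at 72 h. Scaling by library size alone moved the median log2 fold change of all genes to 0.127 at 36 h and 0.142 at 72 h.

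No pairing of the samples by replicate number was seen. Same-numbered libraries of SE and control deviated from their group means with correlations of -0.201 to 0.181. For 7 of 24 libraries, the mean correlation with libraries of other groups was highest for those of their own number. Such correlations cannot show that the samples were unpaired. With the replicate number as a block, 4, 3 and 5 members were called at 12, 36 and 72 h, and 4, 3 and 4 without the RUVr factor. At 72 h both blocked fits called Smad3 (0.66, adjusted p = 0.0339 with the RUVr factor and 0.0382 without it, in edgeR), and without that factor Ltbp2 lost its call (3.19, adjusted p = 0.0609).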
